A study of Mus musculus with 16 samples.

Results

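Hearts of mouse embryos that lacked both Ing5 alleles and 1 Ing4 allele (Ing4+/- Ing5-/-) were compared with hearts that lacked 1 Ing4 allele and kept both Ing5 alleles (Ing4+/- Ing5+/+, written Ing4+/- here). The comparison holds 8 of the 16 samples in the series, 4 of each genotype at embryonic day 10.5, taken by their genotype labels. Each sample is called a heart here. Both groups had lost 1 Ing4 allele, so by design the Ing5 alleles were what differed between them. The other 8 hearts were 4 wild-type and 4 Ing5-/- hearts with both Ing4 alleles. They entered the shared estimate of the spread and are set beside the result at the end. The title of the series names acetylation of lysine 14 of histone H3 and the epicardial cell lineage as subjects of the study. RNA was taken from whole hearts. The sources used here do not give how the alleles were made, the strain or any pooling of hearts.

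ING5 and its close relative ING4 bind histone H3 methylated at lysine 4 through a zinc finger of the PHD type. They are subunits of the acetyltransferase complex built around HBO1 (gene Kat7), and ING5 also belongs to the complexes of MOZ (Kat6a) and MORF (Kat6b), which acetylate histone H3 at active genes. At this stage the heart is a looped tube of muscle lined by endocardium, and the epicardium is spreading over its surface from the proepicardium.

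The 8 libraries held 22948569 to 29660043 counted reads. Each is named by genotype and replicate number, as in Ing4+/- 4. Replicates 2, 3 and 4 of both genotypes were littermates, from litters 4, 6 and 7. Replicate 1 came from litter 1 in Ing4+/- Ing5-/- and from litter 3 in Ing4+/-, with no littermate on the other side. Every heart showed the genes of heart muscle, with the summed level of 6 markers (Myh6, Myh7, Myl7, Tnnt2, Actc1 and Nkx2-5) at 23450 to 26890 CPM in Ing4+/- Ing5-/- and 22980 to 24760 CPM in Ing4+/- hearts. CPM, the unit of all levels below, are counts per 1000000 reads of the scaled library, with no correction for gene length.

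Of the 8 libraries, 2 stood apart, and both touch results below. Ing4+/- Ing5-/- 2 lay far from the rest on the first principal component (27.7% of the variance), and its haemoglobin genes took 4.64% of the reads, against 0.484 to 1.94% in the other 7. Ing4+/- 4 lay apart on the third component (12.6%) and held traces of RNA that the other hearts had little of. Its level of Afp, a liver and yolk sac gene, was 14.1 CPM and that of Myf5, a skeletal muscle regulator, was 1.001 CPM, whereas Myf5 was at 0 in the other 7. Afp was 6.04 CPM in Ing4+/- 2 and 0 to 0.113 CPM elsewhere. Xist, which coats the silenced X chromosome, reached 595 CPM in Ing4+/- Ing5-/- 2 and 372 CPM in Ing4+/- 3, where the Y-linked Ddx3y was 0.125 and 0.0417 CPM. The other 6 hearts held 53.4 to 68.9 CPM of Ddx3y, and Ing4+/- 4 had 15.99 CPM of Xist beside it. Among the hearts outside the comparison, Ing5-/- 1 stood apart on the second component (24.1%).

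Ing5 (gene ID 66262, chr1:93803926-93822101, GRCm38, protein-coding) was lower in every Ing4+/- Ing5-/- heart, though its reads did not vanish. In the order of replicates 1 to 4, which all lists of values below follow with Ing4+/- Ing5-/- first, Ing5 stood at 19.8, 25.1, 19.9 and 19.2 CPM against 35.4, 37.2, 33.7 and 42.3 CPM. The groups did not overlap, and Ing4+/- Ing5-/- 2 was the highest of its group. Group means were 21.01 ± 2.75 against 37.2 ± 3.703 CPM (SD, n = 4). The log2 fold change was -0.82 ± 0.13 (SE), with an edgeR adjusted p of 0.00266. Within litters 4, 6 and 7 the log2 ratio of littermates was -0.56, -0.76 and -1.13. Levels were 29.3, 23.7, 18.5 and 22.4 CPM in Ing5-/- hearts and 35.2, 36.9, 28.9 and 33.3 CPM in wild-type hearts.

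Ing4, of which both groups had lost 1 allele, differed between them by less than the spread. The gene (ID 28019, chr6:125039848-125049265, GRCm38, protein-coding) stood at 35.7, 36.2, 32.5 and 32.8 CPM against 36.3, 33.5, 32 and 34.8 CPM, and the groups overlapped. Its log2 fold change was 0.0061 ± 0.12 (adjusted p = 0.99). In hearts with both Ing4 alleles, Ing4 stood at 60.7, 51.97, 47.8 and 43.5 CPM in Ing5-/- hearts and 42.9, 28.2, 44.4 and 42.6 CPM in wild-type hearts. The library labelled wild-type 2 held less Ing4 than any of the 8 hearts with 1 Ing4 allele, which goes against its label. Counts that use it are given with and without it below. Of 15 measured ING proteins and subunits of the HBO1, MOZ and MORF complexes, edgeR called Ing5 itself lower and did not call the other 14. Ing1 (0.08 ± 0.06), Ing2 (0.19 ± 0.11) and Ing3 (-0.08 ± 0.11) overlapped between the groups. So did the enzymes Kat7 (0.0083 ± 0.061), Kat6a (-0.05 ± 0.06) and Kat6b (-0.08 ± 0.10), the scaffold Brpf1 (0.08 ± 0.07) and the shared subunit Meaf6 (-0.09 ± 0.09). Brd1, the scaffold also known as BRPF2, stood at 95.6 to 105 CPM against 87.4 to 89.1 CPM with no overlap and was not called by edgeR (adjusted p = 0.13), but was by DESeq2 (0.0457).

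Loss of Ing5 went with more rises than falls. Of 15785 genes tested, 173 were called at an adjusted p under 0.05 (1.1%). Of these, 114 were higher (0.722% of all genes) and 59 lower (0.374%) in Ing4+/- Ing5-/- hearts. The median log2 fold change of all genes was -0.0013. In RNA from whole hearts, fewer cells of a type and less RNA per cell cannot be told apart for any of these genes. The 4 and the 4 hearts did not overlap for 166 of the 173, against 10.1% of all genes. Littermates differed in 1 direction in all 3 shared litters for 170 of the 173, against 35% of all genes. The 173 were called from these same hearts, so both counts are a description and no test. A fit that blocked on litter called 65 genes (51 higher and 14 lower), 60 of them among the 173. All 173 kept their direction there, which is a description for the same reason.

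**Figure D1:**
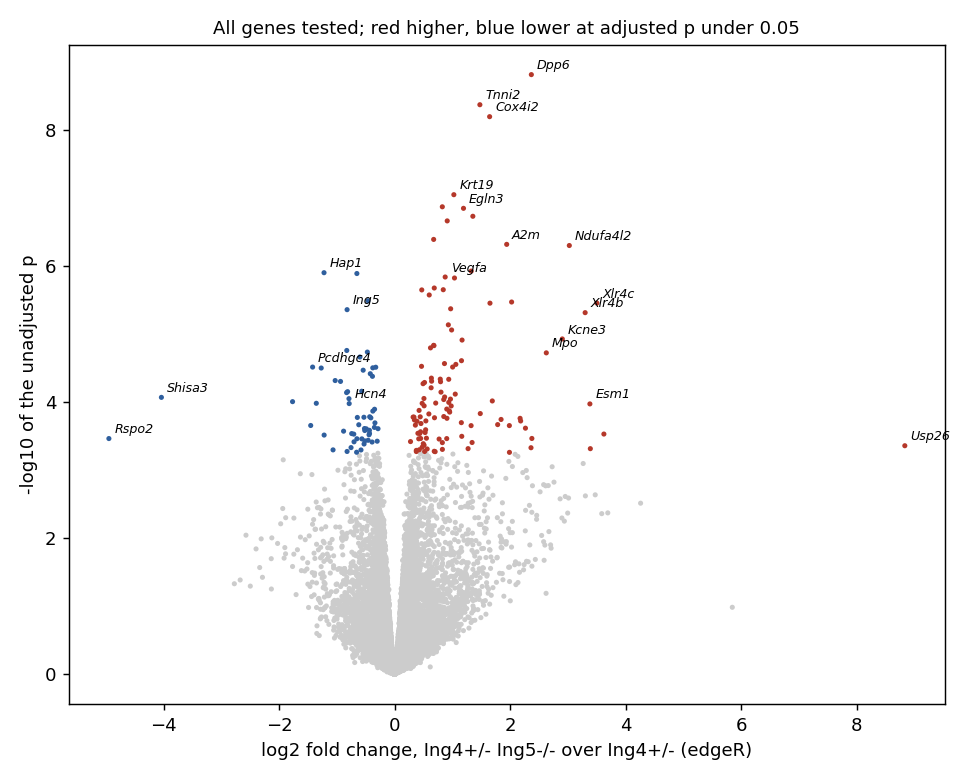
Each point is 1 of the 15785 genes tested, with the log2 fold change of Ing4+/- Ing5-/- over Ing4+/- hearts on the x axis and the -log10 of the unadjusted edgeR p on the y axis. The 114 red points were called higher and the 59 blue points lower at an adjusted p under 0.05. Dpp6, Tnni2 and Cox4i2 stand highest, and Usp26, absent from all Ing4+/- hearts, lies farthest to the right.

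The number of calls depended on single hearts. It fell to 111 without Ing4+/- Ing5-/- 1, 67 without Ing4+/- Ing5-/- 2 and 95 without Ing4+/- Ing5-/- 3. It was 77, 75, 113 and 76 without Ing4+/- 1, 2, 3 and 4, and 128 without Ing4+/- Ing5-/- 4. It was 419 without Ing5-/- 1, which is not part of the comparison but enters the estimate of the spread, and 38 without Ing4+/- Ing5-/- 2 and Ing4+/- 4 together. Without the 3 libraries that stood apart it was 183. In each of these, every gene of the 173 that was still tested kept its direction. Since the 173 were called from the same hearts, that is a description and no test. Of the 87 called genes named here, 30 stayed called whichever 1 of the 8 hearts was left out. For the others, the hearts whose omission ended the call are given beside the gene, with the adjusted p that resulted.

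Other choices ended further calls among the 87. Limma-voom did not call 19 (adjusted p 0.0525 to 0.471), namely Mlph, Hkdc1, Pgk1, Hspg2, Layn, Mpo, Csf1r, Nup62cl, Hlf, Cdkl2, Apold1, Ptpn6, Fcna, F13a1, Sohlh2, Slc7a3, Trib3, Shisa3 and Rspo2. With the haemoglobin level as a covariate 22 were lost (adjusted p 0.0503 to 0.13), namely Mlph, Xlr3a, Usp26, Cdkl2, Fmr1nb, Mab21l2, Arrdc4, Trib3, Xlr3b, Sohlh2, Acvr1, Adm2, Igf1, Fcna, Atf5, Hlf, Cacna2d1, Nrp2, Hspg2, Ptpn6, Slc7a3 and F13a1. Without the library labelled wild-type 2 there were 148 calls, and 14 of the 87 were lost (adjusted p 0.0502 to 0.0629). With only the 8 hearts 8 were lost (adjusted p 0.0512 to 0.0735). Without the filter on low counts 6 were lost (adjusted p 0.0526 to 0.0752), namely Fcna, Hkdc1, Ptpn6, Hlf, Apold1 and Sohlh2. With a replicate block within the 3 shared litters (only the hearts of litters 4, 6 and 7), 67 were lost, Ing5 among them (adjusted p 0.0509 to 0.361). Without the 3 libraries that stood apart 26 were lost (adjusted p 0.0584 to 0.146). With the replicate number as a block over all hearts 13 were lost (adjusted p 0.0519 to 0.0949). DESeq2 called all 87.

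Genes known to respond to low oxygen were among those that rose. In cells short of oxygen, the hydroxylases of the EGLN family no longer mark the factors HIF1A and EPAS1 for destruction, and these factors raise genes for glycolysis, oxygen supply and a changed respiratory chain. Of 33 measured genes of this response, 10 rose (30.3%, against 0.722% of all genes) and 0 fell. Their median log2 fold change was 0.42, beside -0.0013 for all genes, and 29 of the 33 values were positive. Of the factors, Hif1a stood at 389 to 451 CPM against 494 to 550.0 CPM and was not called (adjusted p = 0.177), though it was called lower when the 8 hearts alone were fitted (0.042) or without Ing5-/- 1 (0.0168). Epas1 stood at 33.5 to 45.2 CPM against 32.05 to 36.9 CPM and was not called (adjusted p = 0.489). The list held 9 calls with litter as a block, 6 without Ing4+/- 1, 5 without Ing4+/- 2, 16 without Ing5-/- 1 and 7 without Ing4+/- Ing5-/- 2 and Ing4+/- 4 together.

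Among the members that act on oxygen sensing and the respiratory chain, the rises held without any single heart and with litter as a block. Egln3 (chr12:54178981-54203874, GRCm38), itself one of the hydroxylases, stood at 24.8, 28.1, 23.6 and 30.9 CPM against 10.3, 10.9, 12.7 and 13.1 CPM. All 4 Ing4+/- Ing5-/- hearts lay above all 4 Ing4+/- hearts (26.8 ± 3.304 against 11.7 ± 1.35 CPM, SD, n = 4), and the log2 fold change was 1.19 ± 0.14, adjusted p = 0.000373. Cox4i2 (chr2:152753916-152765039, GRCm38), the alternative form of subunit 4 of cytochrome c oxidase, stood at 14.9, 18.4, 13.01 and 17.9 CPM against 5.83, 4.99, 4.54 and 5.14 CPM. The lowest Ing4+/- Ing5-/- heart was above the highest Ing4+/- heart, and the log2 fold change was 1.64 ± 0.16, adjusted p = 3.36e-05. Ndufa4l2 (chr10:127509274-127517154, GRCm38), a relative of a respiratory chain subunit, stood at 13.01, 21.3, 11.5 and 18.9 CPM against 1.73, 1.16, 1.5 and 3.62 CPM. It had the largest fold of the list (3.02 ± 0.40, adjusted p = 0.000717), and Ing4+/- 4 was the highest of the Ing4+/- hearts. Of their constitutive relatives, Cox4i1 stood at 433 to 492 CPM against 409 to 469 CPM and Ndufa4 at 195 to 242 CPM against 211 to 252 CPM, with overlapping groups.

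The secreted and tissue-level members rose too. Vegfa (chr17:46016993-46032377, GRCm38), the growth factor that drives blood vessel growth, stood at 176, 240.4, 192 and 179 CPM against 102, 106, 103 and 118 CPM (0.88 ± 0.12, adjusted p = 0.00148). Vegfa was higher in all Ing4+/- Ing5-/- hearts than in any Ing4+/- heart, and Ing4+/- Ing5-/- 2 was the highest. Stc2, which encodes a secreted glycoprotein, stood at 9.25, 10.3, 6.24 and 11.6 CPM against 2.41, 3.04, 2.17 and 4.31 CPM (1.65 ± 0.25, adjusted p = 0.00231), again with no overlap. These calls also held without any single heart. P4ha2 and P4ha1 encode catalytic subunits of the enzyme that hydroxylates collagen. P4ha2 ranged from 54.4 to 70.7 CPM against 33.7 to 43.04 CPM (0.80 ± 0.15, adjusted p = 0.0139), and P4ha1 from 142 to 172 CPM against 94.4 to 126 CPM (0.51 ± 0.10, adjusted p = 0.0222). The call of P4ha2 was lost without Ing4+/- 1 or 2 (adjusted p 0.0519 to 0.054), and that of P4ha1 was lost without Ing4+/- Ing5-/- 4 or Ing4+/- 1, 2 or 3 (adjusted p 0.0606 to 0.0908).

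Of the mitochondrial and regulatory members, Bnip3, a receptor that sends mitochondria to degradation, stood at 235, 290.2, 154 and 252 CPM against 103, 110.0, 106 and 162 CPM (0.95 ± 0.20, adjusted p = 0.0254). It was the called member whose groups overlapped, since Ing4+/- 4 was above Ing4+/- Ing5-/- 3. The call was lost without Ing4+/- Ing5-/- 1, 2 or 4 or Ing4+/- 1, 2 or 3 (adjusted p 0.0547 to 0.098). Higd1a, a small protein of the inner mitochondrial membrane, ranged from 54.3 to 65.02 CPM against 41.3 to 46.05 CPM (0.46 ± 0.10, adjusted p = 0.0302), a call lost without Ing4+/- Ing5-/- 1, 2 or 4 or Ing4+/- 1, 2, 3 or 4 (adjusted p 0.061 to 0.102) and with litter as a block (0.086). The repressor gene Bhlhe40 ranged from 19.7 to 30.9 CPM against 13.9 to 18.5 CPM (0.64 ± 0.12, adjusted p = 0.0137), a call lost without Ing4+/- 2 or 4 (adjusted p 0.0503 to 0.0551). Fam162a, a mitochondrial protein gene outside the list, rose with no overlap, at 208 ± 11.8 against 130.4 ± 5.85 CPM (SD, n = 4; 0.68 ± 0.09, adjusted p = 0.000713), and held without any single heart. Hypoxia targets that were not called include Adm (9.96 to 15.1 CPM against 8.62 to 13.3 CPM) and Car9 (3.05 to 5.23 CPM against 2.61 to 4.01 CPM).

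**Figure D2:**
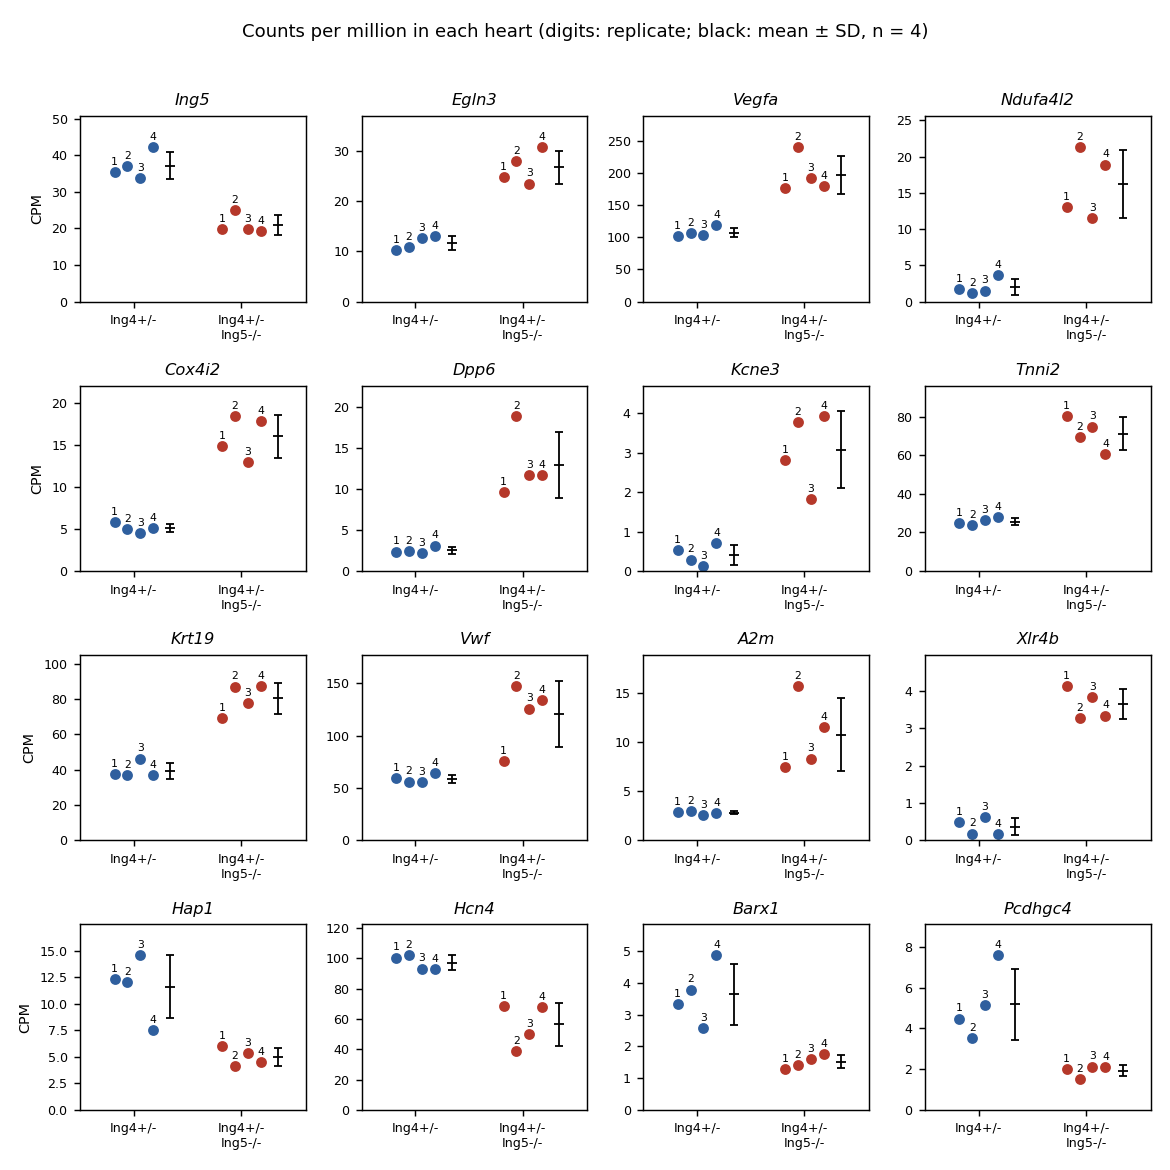
CPM in each of the 8 hearts for 16 genes, with Ing4+/- hearts in blue, Ing4+/- Ing5-/- hearts in red, the replicate number above each point and the mean ± SD (n = 4) in black. In all 16 panels the 4 red points and the 4 blue points do not overlap, with Ing5, Hap1, Hcn4, Barx1 and Pcdhgc4 lower and the other 11 higher in Ing4+/- Ing5-/- hearts.

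More genes of glycolysis and glucose transport rose than fell. Of 24 measured members, 8 rose (33.3%, against 0.722% of all genes) and 1 fell (4.17%, against 0.374%). The median log2 fold change was 0.47, and the groups did not overlap for 16, against 10.1% of all genes. Aldoc, an aldolase, stood at 17.5, 22.2, 12.3 and 17.3 CPM against 8.01, 8.68, 6.62 and 7.49 CPM (1.17 ± 0.20, adjusted p = 0.00624), with no overlap. It was the member whose call held without any single heart and with litter as a block. Pfkl, a subunit of the enzyme that commits sugar to glycolysis, stood at 619.9, 552, 513 and 583 CPM against 349, 353, 388 and 365 CPM (0.64 ± 0.12, adjusted p = 0.0139). Every Ing4+/- Ing5-/- heart was above every Ing4+/- heart. The call was lost without Ing4+/- 1 or 2 (adjusted p 0.0519 to 0.0526) and with litter as a block (0.0734). Pdk1, the kinase that holds pyruvate out of the mitochondrial cycle, stood at 439, 443, 342 and 433 CPM against 241, 239, 251 and 280.5 CPM (0.71 ± 0.14, adjusted p = 0.0212). No values overlapped, Ing4+/- Ing5-/- 3 was the lowest of its group, and the call was lost without Ing4+/- Ing5-/- 1, 2 or 4 or Ing4+/- 1, 2 or 3 (adjusted p 0.0508 to 0.0763) and with litter as a block (0.0694).

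Enzymes of the later steps of glycolysis rose too. Pkm, pyruvate kinase, ranged from 1935 to 2217 CPM against 1421 to 1457 CPM (0.54 ± 0.12, adjusted p = 0.0287). Pgk1, phosphoglycerate kinase, ranged from 201 to 245 CPM against 154 to 181 CPM (0.48 ± 0.11, adjusted p = 0.0466). Gapdh, Tpi1 and the glucose transporter gene Slc2a3 rose as well and lie within 10 Mb of Ing4 on chromosome 6. Gapdh, whose counts are uncertain because near-identical pseudogenes exist, ranged from 86.6 to 95.1 CPM against 60.9 to 75.5 CPM (0.42 ± 0.09, adjusted p = 0.0249), Tpi1 from 1259 to 1567 CPM against 919 to 993 CPM (0.55 ± 0.12, adjusted p = 0.0385) and Slc2a3 from 129 to 244 CPM against 90.7 to 114 CPM (0.94 ± 0.19, adjusted p = 0.0212). The call of Pkm was lost without Ing4+/- Ing5-/- 1, 2 or 4 or Ing4+/- 1, 2, 3 or 4 (adjusted p 0.0606 to 0.0908) and with litter as a block (0.0902), and that of Pgk1 without Ing4+/- Ing5-/- 1, 2 or 4 or Ing4+/- 1, 2, 3 or 4 (adjusted p 0.0797 to 0.132) and with litter as a block (0.162). The call of Gapdh was lost without Ing4+/- Ing5-/- 1 or 2 or Ing4+/- 1, 2 or 4 (adjusted p 0.0666 to 0.0908) and with litter as a block (0.0544), that of Tpi1 without any 1 of the 8 hearts (adjusted p 0.0549 to 0.117) and with litter as a block (0.112), and that of Slc2a3 without Ing4+/- Ing5-/- 2 or 4 or Ing4+/- 1, 2 or 3 (adjusted p 0.0504 to 0.0814). Ldha, Aldoa and the lactate exporter gene Slc16a3 did not overlap between the groups and missed the threshold (adjusted p = 0.0556, 0.0626 and 0.0516). Arrdc4, an arrestin that limits glucose uptake, was the member that fell, at 20.3 ± 3.88 against 31.9 ± 3.57 CPM (SD, n = 4; -0.65 ± 0.15, adjusted p = 0.0385). The call did not hold without Ing4+/- Ing5-/- 2 or 3 or Ing4+/- 1, 2, 3 or 4 (adjusted p 0.0503 to 0.133).

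The glycolysis count rested on single hearts more than the low-oxygen count did. It was 9 with all 8 hearts, 3 with litter as a block, and 4, 2, 7 and 4 without Ing4+/- Ing5-/- 1, 2, 3 and 4. It was 1, 1, 3 and 4 without Ing4+/- 1, 2, 3 and 4, 15 without Ing5-/- 1, and 0 without Ing4+/- Ing5-/- 2 and Ing4+/- 4 together (12 without the filter on low counts and 15 by DESeq2 with all hearts). The 30 measured nuclear genes of oxidative phosphorylation held 0 calls by edgeR, DESeq2 or limma-voom and 1 unadjusted p under 0.05, with a median log2 fold change of 0.025.

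The promoters of 3 called genes of these lists, a sensor, a secreted protein and an enzyme, are printed because the factors of the low-oxygen response bind the core ACGTG or GCGTG. Each sequence is the strand of the gene for the 250 bases before its start, from RefSeq on GRCm38.p6. Capitals mark ACGTG or GCGTG, or their reverse complements CACGT or CACGC.
Egln3, chr12:54203875-54204124 (-): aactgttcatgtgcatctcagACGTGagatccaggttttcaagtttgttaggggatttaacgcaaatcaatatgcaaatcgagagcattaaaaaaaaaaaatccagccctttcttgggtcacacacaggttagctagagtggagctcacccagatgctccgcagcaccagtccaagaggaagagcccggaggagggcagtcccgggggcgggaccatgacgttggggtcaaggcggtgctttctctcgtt
Stc2, chr11:31370062-31370311 (-): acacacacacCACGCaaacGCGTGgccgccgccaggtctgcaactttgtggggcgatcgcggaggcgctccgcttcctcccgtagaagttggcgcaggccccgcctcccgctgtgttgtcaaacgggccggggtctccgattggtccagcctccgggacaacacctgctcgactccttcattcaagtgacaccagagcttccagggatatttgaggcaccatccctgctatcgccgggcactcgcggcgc
Pfkl, chr10:78009808-78010057 (-): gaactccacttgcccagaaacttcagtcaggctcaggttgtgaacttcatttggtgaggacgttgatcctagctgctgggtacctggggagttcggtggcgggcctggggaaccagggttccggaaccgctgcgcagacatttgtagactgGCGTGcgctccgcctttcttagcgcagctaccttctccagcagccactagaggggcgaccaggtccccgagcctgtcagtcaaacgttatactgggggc
The capitals begin 229 bases before the start in Egln3, 240 and 231 bases before it in Stc2, and 99 bases before it in Pfkl. In windows from 250 bases before to 50 after the start, on both strands, 13 of the 14 rising members with an entry held a core (92.9%). So did 43 of the 48 measured members of the lists (89.6%), 54 of the 82 called higher genes (65.9%), 30 of the 45 called lower genes (66.7%) and 65.6% of the genes tested. The share was 46.7% of all 27025 genes with an entry and 43.8% of all 32851 windows. A match describes the letters of the sequence and is no measure of binding.

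Ion channel genes changed in both directions. Of 26 measured genes of channels and calcium handling, 3 rose and 3 fell (11.5% each, against 0.722% and 0.374% of all genes), and the median was 0.022. Dpp6 (chr5:26817357-27727500, GRCm38), an auxiliary subunit of potassium channels of the Kv4 type, had the smallest p of all genes. It stood at 9.59, 18.9, 11.7 and 11.7 CPM against 2.37, 2.42, 2.17 and 3.09 CPM. Every Ing4+/- Ing5-/- heart was more than 3 times above the highest Ing4+/- heart, Ing4+/- Ing5-/- 2 was the highest, and the log2 fold change was 2.37 ± 0.21, adjusted p = 2.43e-05. The pore genes Kcnd2 and Kcnd3 were not called, at 4.72 to 5.26 CPM against 3.798 to 5.71 CPM and 2.45 to 3.31 CPM against 2.96 to 4.62 CPM. Kcne3, a small accessory subunit of potassium channels, stood at 2.81, 3.78, 1.82 and 3.92 CPM against 0.526, 0.289, 0.125 and 0.697 CPM (2.90 ± 0.49, adjusted p = 0.00621). All Ing4+/- hearts were below 1 CPM and all Ing4+/- Ing5-/- hearts above it. The call was lost with litter as a block (adjusted p = 0.0638). Kcne1, a subunit of the same family that pairs with Kcnq1, stood at 36.3, 40.9, 38.98 and 38.6 CPM against 26.6, 22.7, 25.2 and 21.3 CPM (0.69 ± 0.15, adjusted p = 0.0273). Kcnq1 stood at 12.7 to 14.1 CPM against 9.44 to 11.5 CPM with no overlap and was not called (adjusted p = 0.375).

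The channel genes that fell were Hcn4, Kcnj5 and Cacna2d1. Hcn4, the pacemaker channel, stood at 68.5, 38.9, 50.02 and 68.03 CPM against 101, 102, 93.2 and 93.1 CPM (-0.79 ± 0.16, adjusted p = 0.0212). All Ing4+/- hearts lay within 93.1 to 102 CPM, and Ing4+/- Ing5-/- 2 was the lowest of all. Kcnj5, a subunit of the potassium channel that acetylcholine opens in the atrium, ranged from 128 to 147 CPM against 169 to 183 CPM (-0.35 ± 0.07, adjusted p = 0.0242). Cacna2d1, an auxiliary calcium channel subunit, ranged from 33.4 to 40.99 CPM against 50.04 to 57.2 CPM (-0.46 ± 0.10, adjusted p = 0.0399). The call of Kcne1 was lost without Ing4+/- Ing5-/- 2, 3 or 4 or Ing4+/- 1, 2, 3 or 4 (adjusted p 0.0514 to 0.0952) and with litter as a block (0.0694), and that of Hcn4 without Ing4+/- Ing5-/- 2 or 3 or Ing4+/- 1, 2 or 4 (adjusted p 0.0523 to 0.0782) and with litter as a block (0.0832). The call of Kcnj5 was lost without Ing4+/- Ing5-/- 2 or 3 or Ing4+/- 1, 2, 3 or 4 (adjusted p 0.0506 to 0.098) and with litter as a block (0.086), and that of Cacna2d1 without any 1 of the 8 hearts (adjusted p 0.0594 to 0.123) and with litter as a block (0.178). The list held 1 call under the litter block, 2 without Ing4+/- Ing5-/- 2 or 3 or Ing4+/- 1, 2 or 4, and 3 without Ing4+/- 3. Hcn4 was also the 1 call among 17 measured genes of atrium and inflow (5.88%, against 0.374% of all genes lower). Kcne1 was that among 15 of trabecular myocardium (6.67%, against 0.722% of all genes higher). Shox2, a regulator of the pacemaker, stood at 11.4, 3.11, 3.49 and 14.98 CPM against 26.8, 25.2, 11.5 and 20.5 CPM with overlapping groups (adjusted p = 0.463).

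Troponins of fast skeletal muscle rose, the 2 calls among 6 measured genes of skeletal and pharyngeal muscle (33.3%, against 0.722% of all genes). Tnni2 (chr7:142441816-142444410, GRCm38), the fast form of troponin I, stood at 80.2, 69.5, 74.9 and 60.6 CPM against 24.7, 23.9, 26.2 and 27.8 CPM. The lowest Ing4+/- Ing5-/- heart had more than 2 times the level of the highest Ing4+/- heart, the log2 fold change was 1.48 ± 0.14, adjusted p = 3.36e-05, and the call held without any single heart. Tnnt3, the fast form of troponin T, lies close to Tnni2 (chr7:142498771-142516213, GRCm38), and whether the 2 genes rose independently was not tested. Tnnt3 stood at 15.04, 17.2, 19.99 and 13.1 CPM against 10.7, 9.69, 8 and 6.45 CPM (0.90 ± 0.19, adjusted p = 0.0242), with no overlap. The call did not hold without Ing4+/- Ing5-/- 2 or 3 or Ing4+/- 2, 3 or 4 (adjusted p 0.0521 to 0.0869). The defining genes of skeletal muscle were near 0: of Myf5, Myod1, Myog and Msc the sum was 0 to 0.102 CPM in Ing4+/- Ing5-/- and 0 to 1.001 CPM in Ing4+/- hearts, with Myf5 and Msc at 0 in all Ing4+/- Ing5-/- hearts. Of 26 cardiomyocyte genes, 0 were called by edgeR, DESeq2 or limma-voom, 3 had an unadjusted p under 0.05, and the median was -0.0090. Myh7, the slow myosin, stood at 6165, 7020.3, 6814 and 6696 CPM against 5199.9, 4667, 5076 and 5357 CPM with no overlap and an adjusted p of 0.386 (0.0249 when the 8 hearts alone were fitted and 0.023 without Ing5-/- 1).

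Vwf and Sox18 rose among the endothelial genes. Of 25 measured genes of endothelium and endocardium, 2 rose (8.0%, against 0.722% of all genes), 21 of 25 values were positive and the median was 0.26. Vwf, the von Willebrand factor of vessel walls and platelets (chr6:125552948-125686679, GRCm38, within 10 Mb of Ing4), stood at 75.6, 147, 126 and 134 CPM against 59.2, 55.99, 55.8 and 64.3 CPM (1.04 ± 0.15, adjusted p = 0.00148). The groups did not overlap, and Ing4+/- Ing5-/- 1 was the lowest of its group. The list held 1 call with litter as a block or without Ing4+/- 4 and 5 without Ing5-/- 1. Sox18, a transcription factor of forming vessels, stood at 27.99, 27.9, 27.2 and 37.1 CPM against 19.5, 18.3, 17.9 and 13.7 CPM (0.79 ± 0.15, adjusted p = 0.0138), a call lost without Ing4+/- 4 (adjusted p = 0.0522) and with litter as a block (0.0803). Sox17 stood at 6.27, 5.73, 7.39 and 7.804 CPM against 3.195, 4.77, 3.96 and 1.22 CPM with no overlap and was not called (adjusted p = 0.0626). Notch4, the Notch receptor of endothelium, was the 1 call among 16 measured Notch and arterial genes (6.25%, against 0.722% of all genes). It stood at 26.4, 36.8, 32.4 and 38.8 CPM against 20.5, 23.04, 20.2 and 20.04 CPM (0.68 ± 0.12, adjusted p = 0.00708). Its groups did not overlap, and the call held without any single heart.

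Esm1, Clec14a and Hspg2 rose as well. Esm1, a proteoglycan of sprouting endothelium, stood at 0.678, 1.37, 1.003 and 1.21 CPM against 0.226, 0.0723, 0.0833 and 0 CPM (3.38 ± 0.68, adjusted p = 0.0212), a call lost without Ing4+/- Ing5-/- 2, 3 or 4 or Ing4+/- 2, 3 or 4 (adjusted p 0.0509 to 0.0908) and with litter as a block (0.0838). Clec14a, an endothelial lectin, ranged from 24.6 to 31.8 CPM against 17.8 to 22 CPM (0.45 ± 0.10, adjusted p = 0.0385), a call lost without Ing4+/- Ing5-/- 1, 2, 3 or 4 or Ing4+/- 1, 2 or 3 (adjusted p 0.0534 to 0.116) and with litter as a block (0.164). Hspg2, the basement membrane proteoglycan perlecan, ranged from 571 to 852 CPM against 434 to 488 CPM (0.52 ± 0.12, adjusted p = 0.0494). It was the 1 call among 34 matrix genes (2.94%, against 0.722% of all genes). The call did not hold without Ing4+/- Ing5-/- 2 or 3 or Ing4+/- 1, 2, 3 or 4 (adjusted p 0.0995 to 0.157) and with litter as a block (0.112). The summed level of the defining markers Pecam1, Cdh5, Kdr, Nfatc1 and Npr3 was 643 to 928 CPM in Ing4+/- Ing5-/- and 709 to 773 CPM in Ing4+/- hearts. The part of this level in the rises was not tested.

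Among genes of macrophages, Csf1r, Laptm5 and F13a1 rose, from low levels. Of 23 measured members, 3 rose, against 0.722% of all genes. The groups did not overlap for 16 of the 23, against 10.1% of all genes. Positive values were found for 22, and the median log2 fold change was 1.63. Csf1r, the growth factor receptor of macrophages, stood at 7.93, 11.9, 12.5 and 9.64 CPM against 4.21, 2.75, 3.5 and 1.18 CPM (1.84 ± 0.39, adjusted p = 0.0281). The groups did not overlap, and Ing4+/- 4 was the lowest heart of all. Laptm5, a lysosomal protein of blood cells, stood at 15.6, 20.01, 21.1 and 17.6 CPM against 8.57, 7.27, 10.4 and 9.41 CPM (1.06 ± 0.19, adjusted p = 0.0106). The call did not hold with litter as a block (adjusted p = 0.0544). F13a1, a clotting factor subunit of macrophages, stood at 5.73, 14.5, 11.9 and 5.97 CPM against 1.32, 1.52, 2.33 and 4.49 CPM (1.99 ± 0.47, adjusted p = 0.04998). Members that did not overlap and missed the threshold include the chemokine receptor gene Cx3cr1 at 4.34, 5.603, 4.57 and 4.01 CPM against 1.95, 1.56, 1.62 and 0.61 CPM (adjusted p = 0.0728) and the complement gene C1qa at 1.42, 2.2, 3.98 and 2.46 CPM against 0.526, 0.543, 0.375 and 0 CPM (adjusted p = 0.0819). Lyz2 stood at 18.3 to 22.8 CPM against 19.4 to 23.8 CPM.

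The summed level of Ptprc, Csf1r, Cx3cr1, C1qa and Fcer1g was 17.0, 24.8, 27.1 and 19.3 CPM in Ing4+/- Ing5-/- and 8.54, 6.29, 8.16 and 2.92 CPM in Ing4+/- hearts, with C1qa at 0 in Ing4+/- 4. The macrophage list held 1 call without Ing4+/- Ing5-/- 2 or 3 or Ing4+/- 2 or 3 and 2 calls without any other 1 of the 8 hearts, with litter as a block or without the 3 libraries that stood apart. It held 0 calls without Ing4+/- Ing5-/- 2 and Ing4+/- 4 together, 9 without Ing5-/- 1, 11 when the 8 hearts alone were fitted and 10 by DESeq2. The call of Csf1r was lost without Ing4+/- Ing5-/- 2 or 3 or Ing4+/- 2, 3 or 4 (adjusted p 0.0544 to 0.0917), and that of F13a1 without Ing4+/- Ing5-/- 1, 2, 3 or 4 or Ing4+/- 1, 2 or 3 (adjusted p 0.0512 to 0.162) and with litter as a block (0.237).

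Other genes, several of them of blood cells, rose beside them. Mpo, the myeloperoxidase of myeloid cells, stood at 4.51, 17.3, 7.77 and 4.13 CPM against 0.601, 1.81, 1.42 and 1.61 CPM (2.63 ± 0.46, adjusted p = 0.00806), and its call held without any single heart. A2m, the protease inhibitor alpha-2-macroglobulin (chr6:121636165-121679238, GRCm38, within 10 Mb of Ing4), stood at 7.49, 15.7, 8.32 and 11.6 CPM against 2.86, 2.97, 2.58 and 2.79 CPM (1.94 ± 0.25, adjusted p = 0.000717). All Ing4+/- hearts lay within 2.58 to 2.97 CPM, and the call held without any single heart. H2-Ab1, a chain of MHC class II whose reads can be shared with related genes, stood at 13.8, 18.1, 8.03 and 14.3 CPM against 3.16, 3.73, 2.71 and 3.703 CPM (2.03 ± 0.31, adjusted p = 0.00231), with no overlap. Fcna, the ficolin A gene, stood at 0.779, 1.29, 2.56 and 0.918 CPM against 0.0752, 0.145, 0.292 and 0 CPM (3.39 ± 0.80, adjusted p = 0.0477), a call lost without any 1 of the 8 hearts (adjusted p 0.0569 to 0.159) and with litter as a block (0.0838). Ptpn6, a phosphatase of blood cells (chr6:124720707-124738709, GRCm38, within 10 Mb of Ing4), ranged from 7.25 to 9.21 CPM against 3.83 to 5.601 CPM (0.70 ± 0.17, adjusted p = 0.0494), a call lost without any 1 of the 8 hearts (adjusted p 0.0713 to 0.157) and with litter as a block (0.0803). For these genes the summed macrophage level above moved the same way, and its part in them was not tested.

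Red cell genes gave no call. All 21 measured erythroid genes had a positive log2 fold change, with a median of 1.04, but 0 were called by edgeR, DESeq2 or limma-voom. Of the 21, 7 had an unadjusted p under 0.05, and 0 had groups without overlap, against 10.1% of all genes. The summed level of Hba-x, Hbb-y, Hbb-bh1, Alas2 and Klf1 was 6354 to 40180 CPM in Ing4+/- Ing5-/- and 3870 to 15700 CPM in Ing4+/- hearts. The highest value belonged to Ing4+/- Ing5-/- 2 and the next to Ing4+/- 3. Within litters the median log2 ratio of the list was 2.93 in litter 4, -0.045 in litter 6 and -0.65 in litter 7. With the haemoglobin level as a covariate 138 genes were called, 103 higher and 35 lower.

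Trib3, Slc7a3, Adm2, Atf5, Shmt2 and Cebpb rose, and in all 6 Ing4+/- Ing5-/- 2 was the highest heart. It also held the most haemoglobin RNA (4.64% of its reads). With the haemoglobin level as a covariate, the adjusted p was 0.0713 for Trib3, 0.12 for Slc7a3, 0.079 for Adm2 and 0.0941 for Atf5, so these 4 calls were lost, and 0.0369 for Shmt2 and 0.0454 for Cebpb, which held. Trib3, a pseudokinase gene that the stress factor ATF4 induces, stood at 20.7, 74.9, 15.98 and 10.7 CPM against 4.25, 5.896, 5.92 and 7.49 CPM (2.38 ± 0.54, adjusted p = 0.0385). The other 3 Ing4+/- Ing5-/- hearts also lay above the Ing4+/- hearts. The call was lost without Ing4+/- Ing5-/- 1 or 2 or Ing4+/- 1, 2, 3 or 4 (adjusted p 0.0518 to 0.162) and with litter as a block (0.084). Slc7a3, a transporter of basic amino acids, stood at 4.27, 11.8, 2.27 and 3.46 CPM against 1.01, 1.52, 0.792 and 1.48 CPM (2.17 ± 0.46, adjusted p = 0.0273), a call lost without Ing4+/- Ing5-/- 2 or Ing4+/- 1, 2, 3 or 4 (adjusted p 0.064 to 0.127) and with litter as a block (0.086). Adm2, a peptide hormone gene, stood at 2.37, 5.02, 1.78 and 1.96 CPM against 0.413, 0.289, 0.375 and 1.39 CPM (2.18 ± 0.47, adjusted p = 0.0287), a call lost without Ing4+/- Ing5-/- 1 or 2 or Ing4+/- 1, 2 or 3 (adjusted p 0.0516 to 0.127) and with litter as a block (0.167).

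The other 3 stood at higher levels. Atf5, a transcription factor of the same class as ATF4, stood at 43.6, 90.9, 43.7 and 41.9 CPM against 31.1, 30.3, 28 and 24.6 CPM (0.95 ± 0.20, adjusted p = 0.0249), a call lost without Ing4+/- 1, 2, 3 or 4 (adjusted p 0.0554 to 0.0908). Shmt2, the mitochondrial enzyme that splits serine to glycine, stood at 168, 258, 138 and 158 CPM against 94.7, 95.1, 106 and 80.9 CPM (0.94 ± 0.18, adjusted p = 0.0138), a call lost without Ing4+/- 4 (adjusted p = 0.0564). Cebpb, another transcription factor of the bZIP class, stood at 26.4, 39.97, 34.8 and 27.1 CPM against 19.6, 16.8, 20.04 and 9.11 CPM (0.97 ± 0.19, adjusted p = 0.0204), a call lost without Ing4+/- Ing5-/- 2 or 3 or Ing4+/- 2 (adjusted p 0.0592 to 0.0743). In all 3 genes the groups did not overlap.

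Some genes known from germ cells rose from low levels. Of 20 measured germline genes, 5 rose (25.0%, against 0.722% of all genes) and 0 fell, 18 of 20 values were positive and the median was 1.21. The 5 were Xlr4c, Xlr4b, Fmr1nb, Xlr3a and Xlr3b, all on the X chromosome. The Xlr genes are near-identical copies, so reads of Xlr3a and Xlr3b, and of Xlr4b and Xlr4c, may be split between them in ways these counts do not show. Xlr4b stood at 4.13, 3.28, 3.83 and 3.34 CPM against 0.489, 0.181, 0.625 and 0.174 CPM (3.30 ± 0.51, adjusted p = 0.00283) and Xlr4c at 1.69, 1.45, 1.82 and 1.88 CPM against 0.188, 0.181, 0.167 and 0.0436 CPM (3.501 ± 0.53, adjusted p = 0.00231). In both, every Ing4+/- Ing5-/- heart was above every Ing4+/- heart, and both calls held without any single heart. In Xlr4b the heart with high Xist among the Ing4+/- hearts, Ing4+/- 3, was the highest of its group, and that among the Ing4+/- Ing5-/- hearts, Ing4+/- Ing5-/- 2, the lowest.

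The list held 2 calls under the litter block, 2 without Ing4+/- Ing5-/- 1, 2 or 3 or Ing4+/- 1, 2 or 3, and 3 without Ing4+/- 4. Xlr3b ranged from 9.88 to 11.98 CPM against 2.93 to 6.01 CPM (1.34 ± 0.31, adjusted p = 0.0412), and Xlr3a from 5.48 to 7.803 CPM against 1.99 to 2.74 CPM (1.48 ± 0.31, adjusted p = 0.0264). Fmr1nb, a testis gene, stood at 3.12, 3.82, 3.98 and 2.75 CPM against 0.489, 0.651, 0.542 and 1.79 CPM (1.99 ± 0.43, adjusted p = 0.0307), with Ing4+/- 4 above the rest of its group. The call of Xlr3b was lost without any 1 of the 8 hearts (adjusted p 0.0522 to 0.129) and with litter as a block (0.171), that of Xlr3a without Ing4+/- Ing5-/- 1, 2 or 3 or Ing4+/- 1, 2, 3 or 4 (adjusted p 0.0521 to 0.0917) and with litter as a block (0.148), and that of Fmr1nb without Ing4+/- Ing5-/- 1, 2 or 3 or Ing4+/- 1, 2 or 3 (adjusted p 0.0606 to 0.111) and with litter as a block (0.137). Outside the list, Rnf17, a germ cell protein with Tudor domains, stood at 14.4, 21.96, 17.4 and 15.9 CPM against 7.18, 8.43, 6.5 and 5.58 CPM (1.33 ± 0.19, adjusted p = 0.00145). Its groups did not overlap, and its call held without any single heart. Sohlh2, a transcription factor of early germ cells, stood at 0.712, 0.955, 1.71 and 0.96 CPM against 0.188, 0.253, 0.125 and 0.261 CPM (2.36 ± 0.55, adjusted p = 0.0468), a call lost without any 1 of the 8 hearts (adjusted p 0.064 to 0.162) and with litter as a block (0.21). Usp26, an X-linked ubiquitin protease gene of the testis, stood at 0.779, 3.69, 1.71 and 2.42 CPM against 0, 0, 0 and 0 CPM. With a floor of 3 counts over the 4 Ing4+/- hearts, it was at least 71.9-fold higher (adjusted p = 0.0446), a call lost without any 1 of the 8 hearts (adjusted p 0.0568 to 0.116) and with litter as a block (0.0838). In hearts with both Ing4 alleles, Usp26 was uneven too. It stood at 0.488, 0.159, 0 and 2.10 CPM in Ing5-/- hearts and 0, 0.380, 0 and 0.968 CPM in wild-type hearts. Ddx4, a helicase that marks germ cells, stood at 7.72 to 12.2 CPM against 3.16 to 5.75 CPM with no overlap and was not called (adjusted p = 0.0851).

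Of the epicardial genes Krt19 passed the test, and it rose. Krt19 (chr11:100140810-100145926, GRCm38), a keratin of simple epithelia, stood at 69.2, 87.1, 77.5 and 87.4 CPM against 37.4, 37.1, 46.2 and 37.1 CPM (1.03 ± 0.12, adjusted p = 0.000353). Every Ing4+/- Ing5-/- heart was above every Ing4+/- heart, Ing4+/- 3 was the highest of its group, and the call held without any single heart. It was the 1 call among 31 measured epicardial genes (3.23%, against 0.722% of all genes). Of the 31, 21 had a negative log2 fold change (median -0.22). Within litters 4, 6 and 7 the median log2 ratio of the list was -0.49, -0.18 and 0.057. In Ing5-/- against wild-type hearts the median of the list had the opposite sign, at 0.32. The related keratin Krt8 stood at 64.6, 63.5, 66.4 and 81.6 CPM against 47.4, 49.8, 48.04 and 42.4 CPM with no overlap and missed the threshold (adjusted p = 0.0699).

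The 5 defining epicardial genes that follow were not called in the fit of all 16 hearts. Wt1, a transcription factor of the epicardium, stood at 58.01, 51.5, 61.1 and 58.3 CPM against 74.5, 68, 62.4 and 59.2 CPM (-0.21 ± 0.22, adjusted p = 0.729). Tbx18 stood at 84.9, 69.98, 89.4 and 78.5 CPM against 126, 108, 103 and 96.5 CPM (-0.43 ± 0.25, adjusted p = 0.472), with no overlap, and was called lower when the 8 hearts alone were fitted (adjusted p = 0.046) or without Ing5-/- 1 (0.0355). Tcf21 stood at 35.1, 22.5, 34.7 and 30.1 CPM against 57.4, 44.7, 48.04 and 31.7 CPM (-0.57 ± 0.30, adjusted p = 0.399). In Tcf21 and Wt1 the lowest Ing4+/- heart, Ing4+/- 4, overlapped with the other group. Upk3b, a surface protein of mesothelium, ranged from 92.3 to 129 CPM against 112 to 193 CPM (-0.51 ± 0.31, adjusted p = 0.479), and Aldh1a2, the enzyme that makes retinoic acid, from 21.5 to 33.6 CPM against 23.4 to 47.9 CPM (-0.42 ± 0.36, adjusted p = 0.65). The summed level of these 5 genes was 338, 258, 347 and 293 CPM in Ing4+/- Ing5-/- and 499, 417, 432 and 323 CPM in Ing4+/- hearts, and the ranges overlapped. The epicardial list held 4 calls when the 8 hearts alone were fitted, 3 by DESeq2 and 5 without Ing5-/- 1. With a replicate block within the 3 shared litters it held 2. Itga4, not called in the main edgeR fit, was called lower there (-0.67, adjusted p = 0.0247). So it was with only the 8 hearts (-0.69, 0.0095), without Ing5-/- 1 (-0.695, 0.00295) and without the 3 libraries that stood apart (-0.598, 0.0299). No other alternative called Itga4.

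The proepicardium and septum transversum list held 2 falls among 19 measured genes (10.5%, against 0.374% of all genes) and 17 negative values, with a median of -0.28. Its median in Ing5-/- against wild-type hearts was 0.15. Barx1, a homeobox gene, stood at 1.29, 1.41, 1.598 and 1.75 CPM against 3.35, 3.798, 2.58 and 4.88 CPM (-1.27 ± 0.23, adjusted p = 0.0106). Every Ing4+/- Ing5-/- heart was below every Ing4+/- heart. The call was lost with litter as a block (adjusted p = 0.0883). Mab21l2 ranged from 11.6 to 18.9 CPM against 21.7 to 26 CPM (-0.62 ± 0.13, adjusted p = 0.0307), a call lost without Ing4+/- Ing5-/- 1, 2 or 3 or Ing4+/- 1, 2, 3 or 4 (adjusted p 0.0555 to 0.112) and with litter as a block (0.102). The list held 0 calls with litter as a block or without Ing4+/- Ing5-/- 2 and Ing4+/- 4 together, 1 without any 1 of the 8 hearts other than Ing4+/- Ing5-/- 4, and 3 without Ing5-/- 1. The 11 measured Hox genes, which mark position along the trunk, had a median of -0.66, 0 calls by edgeR, DESeq2 or limma-voom and 5 unadjusted p values under 0.05. Their median in Ing5-/- against wild-type hearts was 0.77. The summed level of the 11 was 298.5, 298.9, 287.9 and 341.3 CPM against 350.5, 330.3, 315.7 and 373.1 CPM. Hoxa5 was a low and uneven member, at 0.61, 0.415, 0.111 and 0.334 CPM against 2.59, 3.73, 0.0833 and 1.09 CPM (adjusted p = 0.281).

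**Figure D3:**
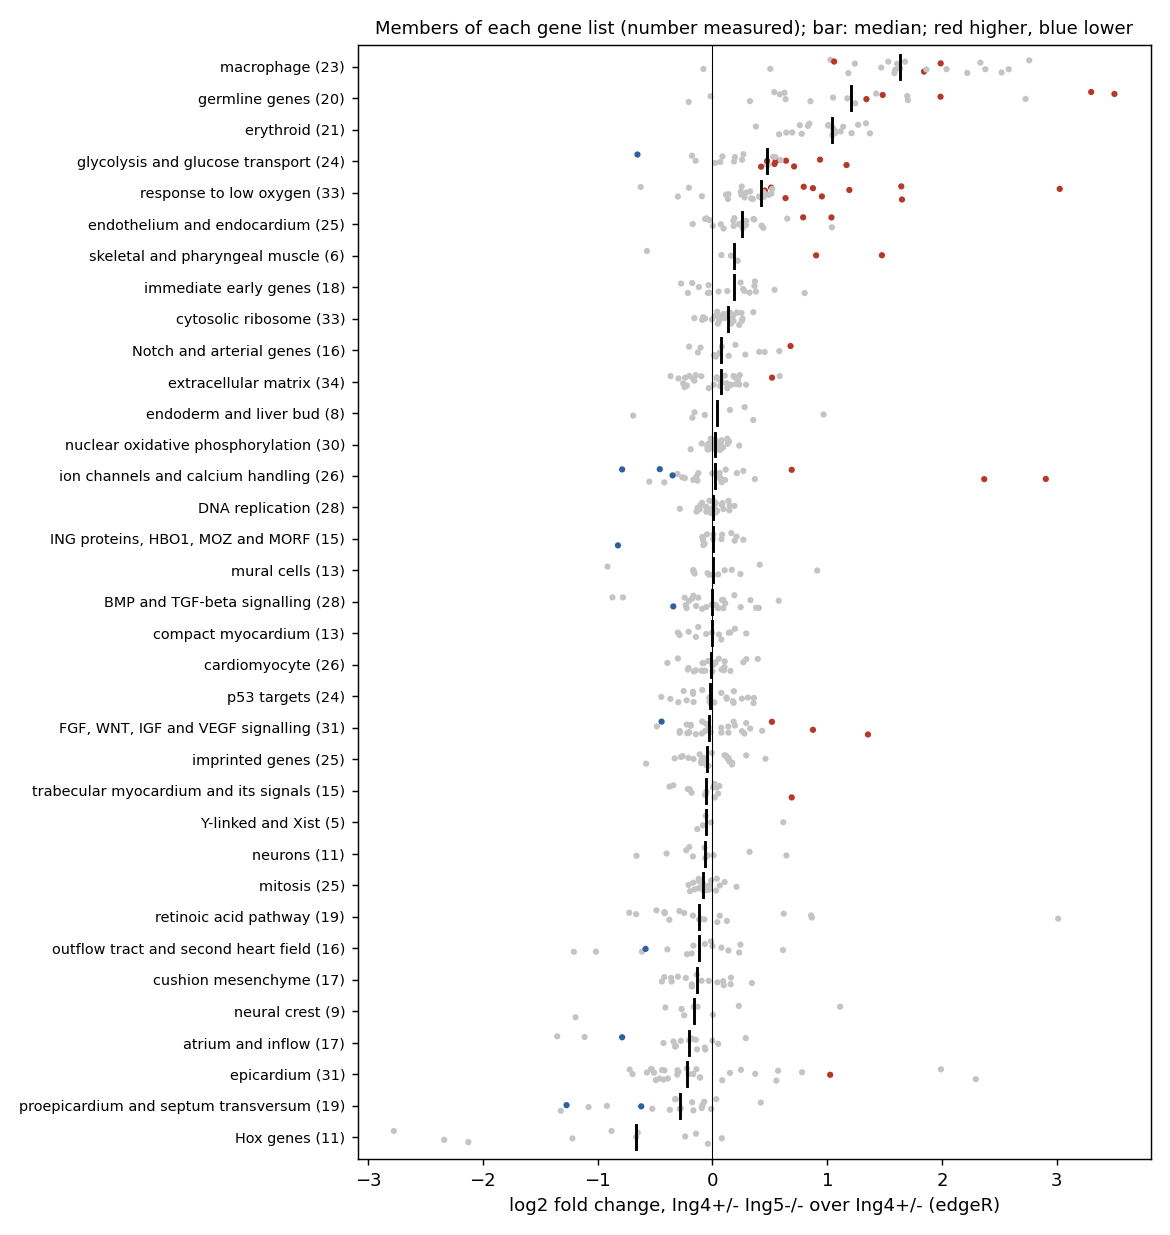
Each point is a measured gene of 1 of the lists, with its log2 fold change of Ing4+/- Ing5-/- over Ing4+/- hearts on the x axis. Red points were called higher, blue points lower and grey points not called, and the black bar is the median of the list. Lists are ordered by median, from macrophage (1.63) to Hox genes (-0.66).

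Of 31 measured genes of FGF, WNT, IGF and VEGF signalling, Igfbp3, Vegfa (given above) and Igfbp2 rose (9.68%, against 0.722% of all genes). Igf1 fell (3.23%, against 0.374% of all genes). Igfbp3, a carrier of insulin-like growth factors, stood at 47.7, 61.7, 47.9 and 65.1 CPM against 25.2, 23.1, 22.1 and 16.4 CPM (1.35 ± 0.17, adjusted p = 0.000419). The groups did not overlap, and the call held without any single heart. Igfbp2, another carrier, stood at 118, 109, 129 and 132 CPM against 85.9, 90.97, 91.2 and 72.1 CPM (0.52 ± 0.10, adjusted p = 0.014), a call lost without Ing4+/- 4 (adjusted p = 0.0531). Igf1, the growth factor itself, stood at 47.1, 49.8, 50.9 and 59.4 CPM against 75.2, 62.4, 63.6 and 80.5 CPM (-0.44 ± 0.10, adjusted p = 0.0361), a call lost without Ing4+/- Ing5-/- 1, 2 or 3 or Ing4+/- 1 or 4 (adjusted p 0.0981 to 0.127) and with litter as a block (0.12). Igf2 and the receptor gene Igf1r were not called, at 5682 to 6839 CPM against 6178 to 7033 CPM and 142 to 168 CPM against 133 to 145 CPM.

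Acvr1 and Nrp2 fell. Acvr1, a receptor for bone morphogenetic proteins, was the 1 call among 28 measured BMP and TGF-beta genes (3.57%, against 0.374% of all genes). It stood at 42.9, 47.6, 52.1 and 53.2 CPM against 65.1, 59.4, 58.4 and 65.1 CPM (-0.34 ± 0.07, adjusted p = 0.0298). The call was lost without Ing4+/- Ing5-/- 1 or 2 or Ing4+/- 1, 2 or 4 (adjusted p 0.0597 to 0.112) and with litter as a block (0.191). Nrp2, a receptor for semaphorins, was the 1 call among 16 outflow tract genes (6.25%, against 0.374% of all genes). It stood at 26.2, 31.2, 30.6 and 44.03 CPM against 48.3, 50.4, 48.04 and 50.8 CPM (-0.58 ± 0.14, adjusted p = 0.0483). The call did not hold without Ing4+/- Ing5-/- 1, 2 or 3 or Ing4+/- 1, 2, 3 or 4 (adjusted p 0.0768 to 0.144) and with litter as a block (0.178). The lists of compact myocardium, cushion mesenchyme, neural crest, neurons, endoderm, mural cells, cytosolic ribosome, DNA replication, mitosis, p53 targets, immediate early genes, retinoic acid and imprinted genes held 0 calls each by edgeR and limma-voom, 0 to 2 by DESeq2, and 0 to 7 genes each with an unadjusted p under 0.05. The largest median among these was 0.19, for the immediate early genes, and the lowest was -0.16, for the neural crest.

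The genes that fell most had low levels. Hap1, a partner of huntingtin in transport within neurons, stood at 5.998, 4.11, 5.31 and 4.47 CPM against 12.3, 12.1, 14.6 and 7.49 CPM (-1.22 ± 0.17, adjusted p = 0.00145). Without overlap between the groups, Ing4+/- 4 was the lowest of its group, and the call held without any single heart. Pcdhgc4, a cell adhesion gene that shares exons with the other genes of its protocadherin cluster and whose count is uncertain for that reason, stood at 1.999, 1.49, 2.12 and 2.09 CPM against 4.47, 3.51, 5.12 and 7.58 CPM (-1.42 ± 0.26, adjusted p = 0.0106). Tagln3, an actin-binding protein of neurons, stood at 11.2, 6.85, 10.1 and 9.35 CPM against 15.7, 15.6, 15.3 and 20.3 CPM (-0.83 ± 0.14, adjusted p = 0.00786). Both held without any single heart. Gabra4, a subunit of a receptor for GABA, stood at 5.12, 3.24, 4.76 and 5.59 CPM against 8.27, 8.97, 7.37 and 13.6 CPM (-1.03 ± 0.19, adjusted p = 0.0139), a call lost without Ing4+/- Ing5-/- 2 (adjusted p = 0.054). Rims2, a protein of transmitter release, stood at 1.46, 1.12, 0.818 and 1.502 CPM against 2.56, 3.15, 3.17 and 3.703 CPM (-1.36 ± 0.27, adjusted p = 0.0212), a call lost without Ing4+/- Ing5-/- 2 or 3 or Ing4+/- 2 or 4 (adjusted p 0.0558 to 0.0777) and with litter as a block (0.0832). Of 11 neuronal markers, edgeR and limma-voom called 0 and DESeq2 1, and 3 had an unadjusted p under 0.05, with Tubb3 at 11.2 to 16.2 CPM against 17.03 to 21.1 CPM (adjusted p = 0.29). The summed level of Sox10, Tubb3 and Stmn2, markers of neural crest and neurons, was 15.3 to 20.6 CPM in Ing4+/- Ing5-/- and 21.4 to 25.1 CPM in Ing4+/- hearts, and its part in these falls was not tested.

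Among the named genes called lower, Shisa3, Rspo2 and Wasf3 had the lowest fold changes. Shisa3, an inhibitor of WNT and FGF receptors, stood at 0.271, 0.0415, 0.186 and 0 CPM against 1.504, 2.31, 0.458 and 4.62 CPM (-4.04 ± 0.80, adjusted p = 0.0201). Rspo2, which strengthens WNT signals, stood at 0.0678, 0.0415, 0 and 0.167 CPM against 2.14, 2.17, 0 and 4.57 CPM (-4.95 ± 1.12, adjusted p = 0.0385), and its groups overlapped because Ing4+/- 3 and Ing4+/- Ing5-/- 3 were both at 0. Wasf3, which promotes actin branching, stood at 0.745, 1.04, 0.409 and 1.29 CPM against 2.67, 2.42, 1.92 and 4.84 CPM (-1.77 ± 0.36, adjusted p = 0.0212). The call of Shisa3 was lost without Ing4+/- Ing5-/- 2 or 3 or Ing4+/- 4 (adjusted p 0.051 to 0.0743) and with litter as a block (0.0595), that of Rspo2 without Ing4+/- Ing5-/- 1, 2, 3 or 4 or Ing4+/- 1, 2 or 4 (adjusted p 0.0621 to 0.127), and that of Wasf3 without Ing4+/- Ing5-/- 1, 2 or 3 or Ing4+/- 4 (adjusted p 0.054 to 0.0656). By limma-voom neither Shisa3 (adjusted p = 0.146) nor Rspo2 (0.471) was called. In all 3 the highest value was that of Ing4+/- 4, the heart with the most Afp and Myf5, and the part of that RNA in these falls was not tested. The summed level of Afp, Apoa1, Foxa2 and Hnf4a, markers of liver and foregut, was 0.149 to 0.576 CPM in Ing4+/- Ing5-/- hearts, 6.47 and 15.1 CPM in Ing4+/- 2 and 4, and 0.263 and 0.167 CPM in Ing4+/- 1 and 3.

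The remaining falls among the 15 largest ranged from -1.45 to -0.82. Car3, a carbonic anhydrase, ranged from 3.74 to 5.13 CPM against 6.62 to 11.4 CPM (-0.94 ± 0.18, adjusted p = 0.0139), a call lost without Ing4+/- Ing5-/- 2 (adjusted p = 0.0661) and with litter as a block (0.0564). Lrrn3, a leucine-rich repeat protein of the nervous system, ranged from 3.61 to 4.95 CPM against 6.76 to 9.76 CPM (-0.83 ± 0.16, adjusted p = 0.0179), a call lost without Ing4+/- Ing5-/- 2 or Ing4+/- 1 or 4 (adjusted p 0.0548 to 0.0726) and with litter as a block (0.0776). Layn, a receptor for hyaluronan, ranged from 2.67 to 3.404 CPM against 5 to 7.19 CPM (-0.88 ± 0.20, adjusted p = 0.0343), a call lost without any 1 of the 8 hearts (adjusted p 0.0554 to 0.102) and with litter as a block (0.0901). Hlf, a transcription factor gene, ranged from 2.34 to 3.42 CPM against 4.92 to 5.41 CPM (-0.82 ± 0.20, adjusted p = 0.0494), a call lost without any 1 of the 8 hearts (adjusted p 0.0627 to 0.133) and with litter as a block (0.146). Hkdc1, a hexokinase relative, ranged from 1.29 to 2.27 CPM against 2.78 to 4.18 CPM (-1.07 ± 0.25, adjusted p = 0.0483), a call lost without any 1 of the 8 hearts (adjusted p 0.0511 to 0.136) and with litter as a block (0.131). The kinase gene Cdkl2 ranged from 1.34 to 2.003 CPM against 2.54 to 5.84 CPM (-1.22 ± 0.27, adjusted p = 0.0362), a call lost without Ing4+/- Ing5-/- 1, 2 or 3 or Ing4+/- 1, 2 or 4 (adjusted p 0.0592 to 0.127) and with litter as a block (0.0838). Nup62cl, an X-linked nucleoporin relative, ranged from 0.61 to 1.502 CPM against 2.07 to 4.17 CPM (-1.45 ± 0.32, adjusted p = 0.0307), a call lost without Ing4+/- Ing5-/- 1 or 2 or Ing4+/- 3 or 4 (adjusted p 0.0798 to 0.113) and with litter as a block (0.0838).

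**Figure D4:**
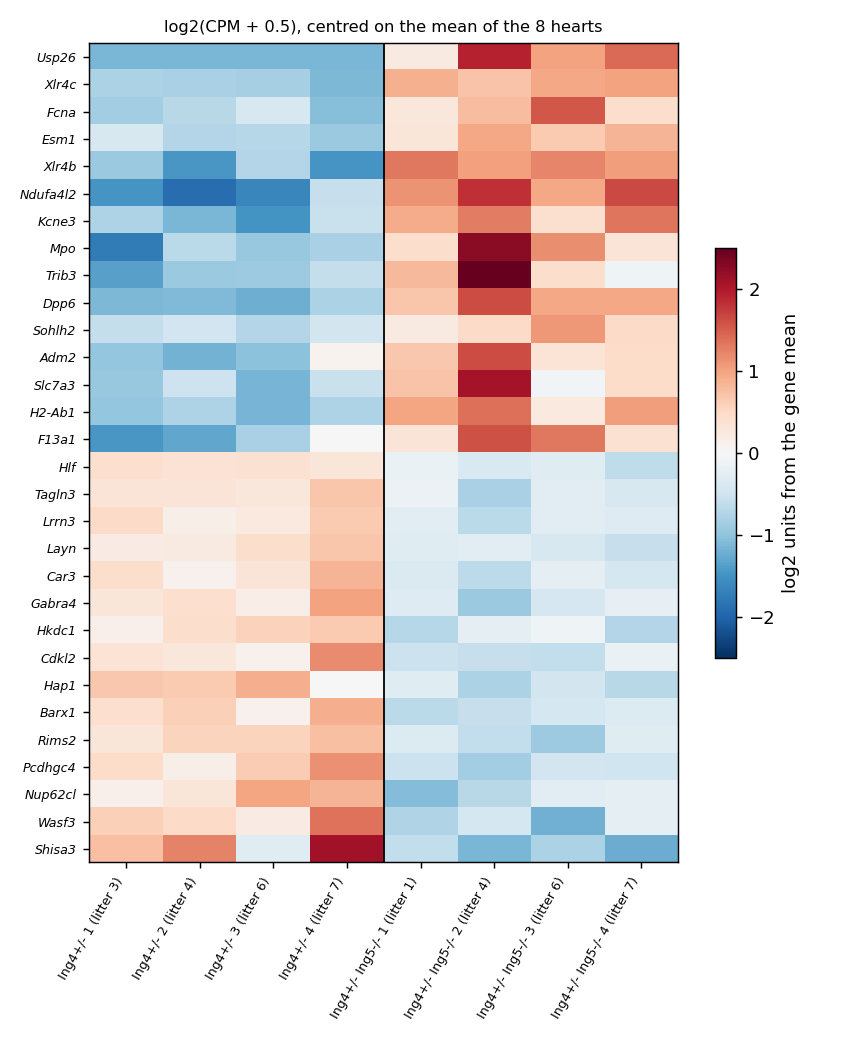
Colour shows log2(CPM + 0.5) of each gene in each of the 8 hearts, centred on the gene's mean, for the 15 largest rises and 15 largest falls named by rule, with Ing4+/- hearts on the left of the line and Ing4+/- Ing5-/- hearts on the right. Ing4+/- Ing5-/- 2 holds the deepest red, in Trib3 and Mpo, and Ing4+/- 4 the deepest red among the falling genes, in Shisa3.

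Smaller changes with a small spread were found in Abat, Asb4, Selenbp1 and Serpinb6b. Abat, the enzyme that breaks down GABA, stood at 52.7, 41.2, 54.5 and 47.5 CPM against 77.2, 74.98, 73.7 and 82.4 CPM (-0.65 ± 0.09, adjusted p = 0.00145). Asb4, an adaptor of a ubiquitin ligase, stood at 89.4, 86.7, 83.8 and 108 CPM against 127, 123, 120.2 and 139.6 CPM (-0.47 ± 0.08, adjusted p = 0.00806). Selenbp1, a methanethiol oxidase, stood at 35.6, 41.05, 29.9 and 28 CPM against 17.8, 16.7, 18.3 and 18.8 CPM (0.91 ± 0.11, adjusted p = 0.000429), and Serpinb6b, a protease inhibitor, at 34.8, 44.2, 40.6 and 41.2 CPM against 25.4, 21.5, 22.2 and 21.5 CPM (0.83 ± 0.10, adjusted p = 0.000373). Abat and Asb4 fell, Selenbp1 and Serpinb6b rose, none of the 4 overlapped between the groups, and all 4 calls held without any single heart and with litter as a block.

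Near Ing5, Mlph and Inpp5d rose. Mlph, which links pigment granules to myosin (chr1:90915024-90951142, GRCm38), stood at 2.27, 4.03, 2.23 and 3.34 CPM against 0.564, 1.16, 0.958 and 0.741 CPM (1.78 ± 0.39, adjusted p = 0.0307), a call lost without Ing4+/- Ing5-/- 2 or 4 or Ing4+/- 1, 2, 3 or 4 (adjusted p 0.0586 to 0.117) and with litter as a block (0.122). Inpp5d, a phosphatase of blood cells (chr1:87620312-87720510, GRCm38), stood at 9.79, 13.4, 13.8 and 13.7 CPM against 7.18, 7.56, 7.46 and 6.88 CPM (0.80 ± 0.16, adjusted p = 0.0179), a call lost without Ing4+/- Ing5-/- 2 or 3 or Ing4+/- 1 or 4 (adjusted p 0.054 to 0.062) and with litter as a block (0.0618). For genes this close to Ing5, the sequence around the targeted allele and the loss of Ing5 cannot be told apart. Of the 15785 genes tested, 15534 lay farther than 10 Mb from Ing4 and Ing5, as did 163 of the 173 called. Called genes were thus a larger share near the targets than among all genes. A fit that left out the near genes called 153 (99 higher and 54 lower). It lost 5 of the named calls (adjusted p 0.0501 to 0.0524), namely Hkdc1, Nrp2, Hlf, Hspg2 and F13a1. Near Ing4, both groups carry 1 lost allele, and whether sequence linked to it differed between them was not tested. The 7 genes called there were the 6 given above (Vwf, A2m, Gapdh, Slc2a3, Tpi1 and Ptpn6) and Apold1, an endothelial gene (chr6:134982001-134986836, GRCm38). Apold1 ranged from 6.13 to 7.64 CPM against 3.87 to 4.63 CPM (0.69 ± 0.16, adjusted p = 0.0494). The call of Apold1 was lost without any 1 of the 8 hearts (adjusted p 0.0585 to 0.139) and with litter as a block (0.211).

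The same question in hearts with both Ing4 alleles was answered by the other 8 hearts, which share no library with the comparison, though litters 1, 4, 6 and 7 hold hearts of both. In Ing5-/- against wild-type hearts, 0 genes were called by edgeR (1542 at an unadjusted p under 0.05, 0 called by limma-voom and 43 by DESeq2). Of the 114 genes that rose with 1 Ing4 allele, 110 were also higher in Ing5-/- than in wild-type hearts, against 53.2% of all genes. Of the 59 that fell, 54 were lower, against 46.8% of all genes. The median of the 114 was 0.86 with 1 Ing4 allele and 0.36 with both, and that of the 59 was -0.60 and -0.21. Without the library labelled wild-type 2, 0 genes were called by edgeR there (1196 at an unadjusted p under 0.05), 111 of the 114 were higher, against 53.1% of all genes, and 52 of the 59 were lower, against 46.9%. The library labelled Ing5-/- 1, with 29.3 CPM of Ing5, lay above wild-type 3 (28.9 CPM). Without it 0 genes were called by edgeR (837 at an unadjusted p under 0.05), 111 of the 114 were higher and 56 of the 59 lower. Since the 173 genes were taken for their size in the first comparison, the smaller values in the second are a description and no test.

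**Figure D5:**
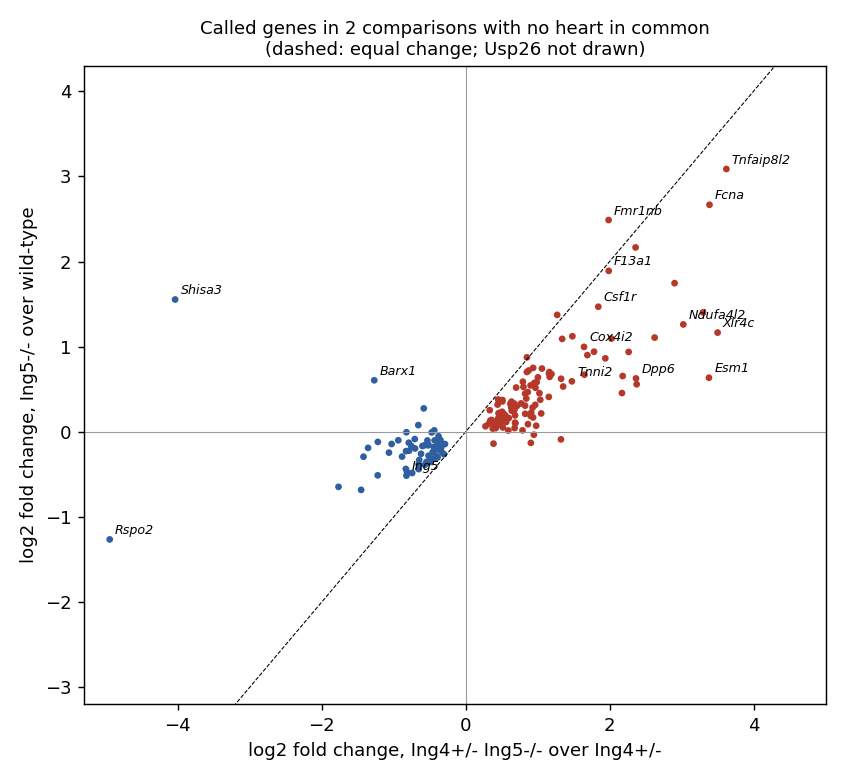
Each point is a called gene, with its log2 fold change of Ing4+/- Ing5-/- over Ing4+/- hearts on the x axis and of Ing5-/- over wild-type hearts on the y axis. The dashed line marks equal change. Most red points (called higher) lie above 0 on the y axis and below the line, Fmr1nb lies above it, and Shisa3 and Barx1 have opposite signs on the axes. Usp26 is not drawn.

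The difference between the Ing4 backgrounds was tested as an interaction over all 16 hearts. It gave 0 calls by edgeR (952 genes, or 6.03%, at an unadjusted p under 0.05, 0 called by limma-voom and 7 by DESeq2). Without the library labelled wild-type 2 or Ing5-/- 1, or both, edgeR also gave 0 calls. Without Ing4+/- 4 edgeR called Cdk2ap1 (adjusted p = 0.0356), named after its value was seen, which DESeq2 also called with all hearts (0.00461) beside Dpp6, Barx1, Shisa3, Tnni2, Nrp2 and the pseudogene Gng5-ps. The smallest unadjusted p belonged to Dpp6 (1.45e-05, adjusted p = 0.136), whose log2 fold change was 2.37 ± 0.21 with 1 Ing4 allele and 0.63 ± 0.21 with both. Barx1 was next among the genes named here (1.73e-05, adjusted p = 0.136), at -1.27 ± 0.23 and 0.61 ± 0.23. Shisa3 followed (5.17e-05, adjusted p = 0.232), at -4.04 ± 0.80 and 1.55 ± 0.69.

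Side by side, these 4 genes of the low-oxygen list had positive values in both backgrounds. Ndufa4l2 was at 3.02 ± 0.40 with 1 Ing4 allele and 1.26 ± 0.39 with both, Cox4i2 at 1.64 ± 0.16 and 1.00 ± 0.16, Egln3 at 1.19 ± 0.14 and 0.68 ± 0.14, and Vegfa at 0.88 ± 0.12 and 0.72 ± 0.12. Tnni2 was at 1.48 ± 0.14 and 0.59 ± 0.14, and Krt19 at 1.03 ± 0.12 and 0.45 ± 0.12. For Csf1r the pair was 1.84 ± 0.39 and 1.47 ± 0.39, and for Fmr1nb 1.99 ± 0.43 and 2.49 ± 0.49. Notch4 (0.68 ± 0.12 and 0.04 ± 0.12) and Sox18 (0.79 ± 0.15 and 0.02 ± 0.15) were near 0 with both Ing4 alleles. Asb4 (-0.47 ± 0.08 and -0.01 ± 0.08) was near 0 there too. By edgeR, the adjusted interaction p of these 11 genes was not below 0.05. DESeq2 gave 0.0339 for Tnni2.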

How the data were processed

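Whole hearts gave total RNA (RNeasy Micro columns) and 16 stranded TruSeq libraries, per the labels' protocols. Whether each library came from a single heart was not given. The authors deposited raw counts of reads per gene, as a series table and 16 equal tables of single samples. Gene lengths in bases (other), which the authors deposited beside them, were not used. Per the submitters' processing notes, the tools named were featureCounts and bcl2fastq, without versions, and the build was mm10. The aligner was not given in the sources used here, nor was the annotation. Of 27179 gene IDs, 25275 (93.0%) were matched to a symbol and position, and the IDs without a symbol took 2.08% of the reads. Libraries held 19753100 to 35664331 counts.

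Tests used edgeR 4.0.16 in R 4.3.3. Its filter on low counts left 15785 genes, TMM scaled the libraries, and a quasi-likelihood model of the 4 genotype means was fitted to all 16 hearts. Standard errors were taken as the absolute log2 fold change over the square root of F. Genes with a p under 0.05 after Benjamini-Hochberg adjustment over all 15785 were called. The biological coefficient of variation was 0.159, and between hearts of 1 genotype the chi-square of the counts, per degree of freedom, was 6.68 to 77.1. On simulated counts of 15616 genes for this comparison, 50% of genes changed by 1.5-fold, 65.2% by 2-fold and 89.1% by 3-fold were called, and 7 of 15418 unchanged genes.

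The members and gene lists were chosen with earlier results of these data known. The rule named the 15 largest rises and 15 largest falls with a group mean of 1 CPM or more and no overlap (without predicted, Y-linked or target-linked genes), up to 5 called members of a list, called genes within 10 Mb of Ing4 or Ing5, and a fixed set of targets, complex subunits and epicardial genes. Rnf17, Abat, Atf5, Shmt2, Cebpb, Fam162a, Selenbp1, Asb4, Rspo2, Clec14a, Serpinb6b and list members past the 5 were added after their values were seen. So were uncalled list members printed for their values.

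Alternatives were DESeq2 size factors, 2 other filters, only the 8 hearts, DESeq2 1.42.0, limma-voom (limma 3.58.1), litter or replicate number as a block, Y-linked or haemoglobin levels as covariates, each heart left out, 3 libraries left out, and genes near the targets left out. Leaving out Ing5-/- 1, wild-type 2, or Ing4+/- Ing5-/- 2 with Ing4+/- 4, was added after seeing the data. Replicate numbers 2, 3 and 4 mark shared litters per the labels, and number 1 does not. The deviations of same-numbered hearts from their group means correlated across genes by 0.101, -0.196, 0.0176 and 0.0416 for numbers 1 to 4.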

Additional observations from a re-analysis of the deposited data

Results flagged for a closer look

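In each group of 4 hearts, the highest or lowest heart of a named gene was set apart where its gap to the next heart exceeded Dixon's 95% critical share of the range of the group. This held for 23 of 204 groups, where chance gives about 1 in 20. No explanation was tested.

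Ing4+/- 4 stood apart in 9 of them. It was high in Tagln3 (20.3 CPM, others 15.3 to 15.7), P4ha2 (43.04 CPM, others 33.7 to 34.6), Slc2a3 (113.8 CPM, others 90.7 to 93.6), Bnip3 (162.1 CPM, others 103 to 110.0), Adm2 (1.394 CPM, others 0.289 to 0.413), Fmr1nb (1.786 CPM, others 0.489 to 0.651), Cdkl2 (5.838 CPM, others 2.54 to 3.04) and Ing3 (33.63 CPM, others 23.0 to 23.5). In Xlr4c it was low (0.04356 CPM, others 0.167 to 0.188).

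Ing4+/- Ing5-/- 2 stood apart in 4. It was high in Ing5 (25.11 CPM, others 19.2 to 19.9), Atf5 (90.9 CPM, others 41.9 to 43.7) and Trib3 (74.88 CPM, others 10.7 to 20.7), and low in Lrrn3 (3.611 CPM, others 4.76 to 4.95).

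The other Ing4+/- hearts gave 4. Ing4+/- 3 was high in Krt19 (46.21 CPM, others 37.1 to 37.4) and Pkm (1457 CPM, others 1421 to 1423) and low in Apold1 (3.875 CPM, others 4.51 to 4.63). Ing4+/- 2 was high in Notch4 (23.04 CPM, others 20.04 to 20.5).

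The other Ing4+/- Ing5-/- hearts gave 6. Ing4+/- Ing5-/- 1 was low in Inpp5d (9.793 CPM, others 13.4 to 13.8) and Cacna2d1 (33.45 CPM, others 39.9 to 41.0). Ing4+/- Ing5-/- 3 was low in Pdk1 (341.8 CPM, others 433 to 443) and Pgk1 (201.0 CPM, others 239.9 to 245). Ing4+/- Ing5-/- 4 was high in Sox18 (37.06 CPM, others 27.2 to 28.0) and Cdkl2 (2.003 CPM, others 1.34 to 1.42).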

How the results depend on the processing

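The 173 calls (114 higher, 59 lower) became 259 (181 and 78) with only the 8 hearts, 486 (314 and 172) by DESeq2, 65 (51 and 14) with litter as a block, 31 (28 and 3) with a replicate block within the 3 shared litters, 138 (103 and 35) with the haemoglobin covariate, and 38 (33 and 5) without Ing4+/- Ing5-/- 2 and Ing4+/- 4. Leaving out 1 library gave 67 to 419 calls, 49 to 254 higher and 13 to 165 lower, lowest without Ing4+/- Ing5-/- 2 (Ing4+/- 1 for higher) and highest without Ing5-/- 1. The other alternatives gave 137 (limma-voom) to 185 calls, and 161 with the replicate number as a block over all hearts. The interaction held 7 calls by DESeq2 and 0 to 1 by edgeR with 1 library left out. Of the 87 named calls, 42 held with litter as a block. Ing5 was at -0.81 with the replicate block within 3 litters (adjusted p = 0.0776) and was called under every other alternative that tested it. Uncalled genes near 0 changed sign. Ing4 (main 0.0061) was at -0.016 with litter as a block, -0.012 without the 3 libraries that stood apart, -0.011 without Ing4+/- Ing5-/- 2 and Ing4+/- 4, and -0.023 to 0.037 with 1 library left out. In the same order of library settings, Ing3 was at 0.088, 0.090 and -0.134 to 0.069, and Kat7 at -0.028, -0.027 and -0.0125 to 0.0314, with -0.016 under the haemoglobin covariate. Kat6b was at -0.127 to 0.023 with 1 library left out. The causes were not tested, except that fewer hearts and litter terms leave fewer degrees of freedom. With 4 hearts a side, genes under about 1 CPM rest on few reads, and changes of 1.5-fold are often missed.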
